A study of Mus musculus with 26 samples.

Results

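Cerebellar granule cell genes were followed through nuclear and cytoplasmic RNA of whole mouse brain. The set was Gabra6, Cbln1, Cbln3, Fat2, Neurod1, Zic1, Zic2 and Etv1, and its 8 members were found by mapping Ensembl identifiers to symbols among the 27502 entries of the count table. They were chosen by their level in sorted neuron nuclei against sorted glial nuclei, with results of the same libraries known, so that contrast is given as a description without a test. The 26 libraries came from mice aged 6 to 12 weeks of 3 transgenic lines: Snap25-EGfp/Rpl10a (JD362Htz), Aldh1L1-EGfp/Rpl10a (JD130Htz) and Cnp-EGfp/Rpl10a (JD368Htz), all labelled B6.FVB. Each line carries green fluorescent protein fused to the ribosomal protein Rpl10a, under the control of Snap25 (neurons), Aldh1L1 (astrocytes) or Cnp (oligodendrocytes), so every group shared the fusion. Sorted nuclei of the neuron, astrocyte and oligodendrocyte lines and presort nuclei (taken before the sort) of the same lines had 4 libraries each, 2 from females and 2 from males, and every replicate was 1 mouse according to the design text. There were 2 cytoplasm libraries, 1 from a male of the Aldh1L1 line and 1 from a female of the Cnp line.

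Cerebellar granule cells are small excitatory neurons packed in the inner layer of the cerebellar cortex and are the most numerous neurons of the brain. They receive mossy fibre input, are inhibited by Golgi cells, and send parallel fibres to the dendrites of Purkinje cells. Gabra6 encodes the alpha6 subunit of the GABA-A receptor, which is characteristic of mature granule cells. Cbln1 is secreted from parallel fibres and joins the fibre to the Purkinje cell at their synapse, and Cbln3 is a relative that assembles with it. Fat2 is a large protocadherin of granule cells. Neurod1, a basic helix-loop-helix factor, and the zinc finger factors Zic1 and Zic2 act in granule cell formation, and Etv1 is an ETS factor of maturing granule cells.

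RefSeq (GRCm38.p6) start-site windows were found for 6 of the 8 genes, and those of Gabra6, Cbln3, Neurod1 and Zic1 are shown because Gabra6, Cbln3 and Neurod1 kept small shares of their neuron level in sorted glial nuclei and Zic1 a larger one. The windows of Fat2 and Etv1 lay inside the gene as GENCODE M21 draws it and are not shown. Each line runs 5′ to 3′ on the minus strand toward the start of transcription, and keeps only those of the 250 upstream bases that lie outside the GENCODE gene. Capitals mark CANNTG, the E-box core bound by basic helix-loop-helix factors, which reads the same on both strands. The coordinates are chr11:42321073-42321322, chr14:55884393-55884506, chr2:79456752-79456886 and chr9:91365811-91366018.
Gabra6: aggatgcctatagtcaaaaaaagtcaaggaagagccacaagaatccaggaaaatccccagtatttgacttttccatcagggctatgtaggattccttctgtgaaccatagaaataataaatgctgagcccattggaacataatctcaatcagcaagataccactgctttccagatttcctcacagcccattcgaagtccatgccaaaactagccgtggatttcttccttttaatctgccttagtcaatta
Cbln3: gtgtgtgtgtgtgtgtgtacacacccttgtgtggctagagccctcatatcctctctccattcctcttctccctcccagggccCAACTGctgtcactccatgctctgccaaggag
Neurod1: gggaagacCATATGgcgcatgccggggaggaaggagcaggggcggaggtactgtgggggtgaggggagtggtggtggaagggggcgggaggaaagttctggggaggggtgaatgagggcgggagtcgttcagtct
Zic1: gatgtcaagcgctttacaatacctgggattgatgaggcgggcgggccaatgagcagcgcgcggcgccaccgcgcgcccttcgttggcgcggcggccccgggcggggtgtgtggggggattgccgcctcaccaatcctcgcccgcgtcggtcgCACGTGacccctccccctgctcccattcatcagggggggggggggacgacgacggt
The Gabra6 window held no CANNTG, and the Cbln3, Neurod1 and Zic1 windows held 1 each. Of all 32851 windows of 250 bases, 66.2% held at least 1. The word CAGATG, which reads CATCTG on the other strand and is itself a CANNTG word, was in none of these 4 windows and in 14.4% of all windows. These matches describe letters in a window and say nothing of binding.

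Sorted libraries held 134357 to 3239445 counts, presort libraries 147826 to 3274488, and the cytoplasm libraries 4461568 and 3885312. Levels are counts per 1000000 counts of the library (CPM), and a floor of 3 counts was worth 22.3 CPM in sorted astrocyte replicate 30, the shallowest sorted library, and at most 1.87 CPM in the other sorted libraries. These floors cover counting error only. Sorted oligodendrocyte replicate 36 stood apart, with 7674 genes detected and 0 counts of the fluorescent tag, against 37.7 to 52.9 CPM of the tag in the other sorted oligodendrocyte libraries. Presort nuclei of that line held 57.5 to 96.2 CPM of the tag, more than any of its sorted libraries. In the neuron and astrocyte lines every sorted library held more of the tag than any presort library of its line. Mitochondrially encoded genes took 5.89% of cytoplasm replicate 1 and at most 0.517% of any other library. The summed level of 10 astrocyte markers was 20423 to 23976 CPM in sorted astrocytes, against 561 to 896 CPM in sorted neurons and 255 to 1597 CPM in sorted oligodendrocytes. The summed level of 10 oligodendrocyte markers was 28634 to 38437 CPM in sorted oligodendrocytes, against 1287 to 1749 CPM in sorted neurons and 1158 to 2211 CPM in sorted astrocytes. The summed level of 10 pan-neuronal markers was 6567 to 8377 CPM in sorted neurons, against 1677 to 2652 CPM in sorted astrocytes and 510 to 2540 CPM in sorted oligodendrocytes. In these bulk libraries fewer nuclei of a type and less RNA per nucleus cannot be told apart.

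**Figure D1:**
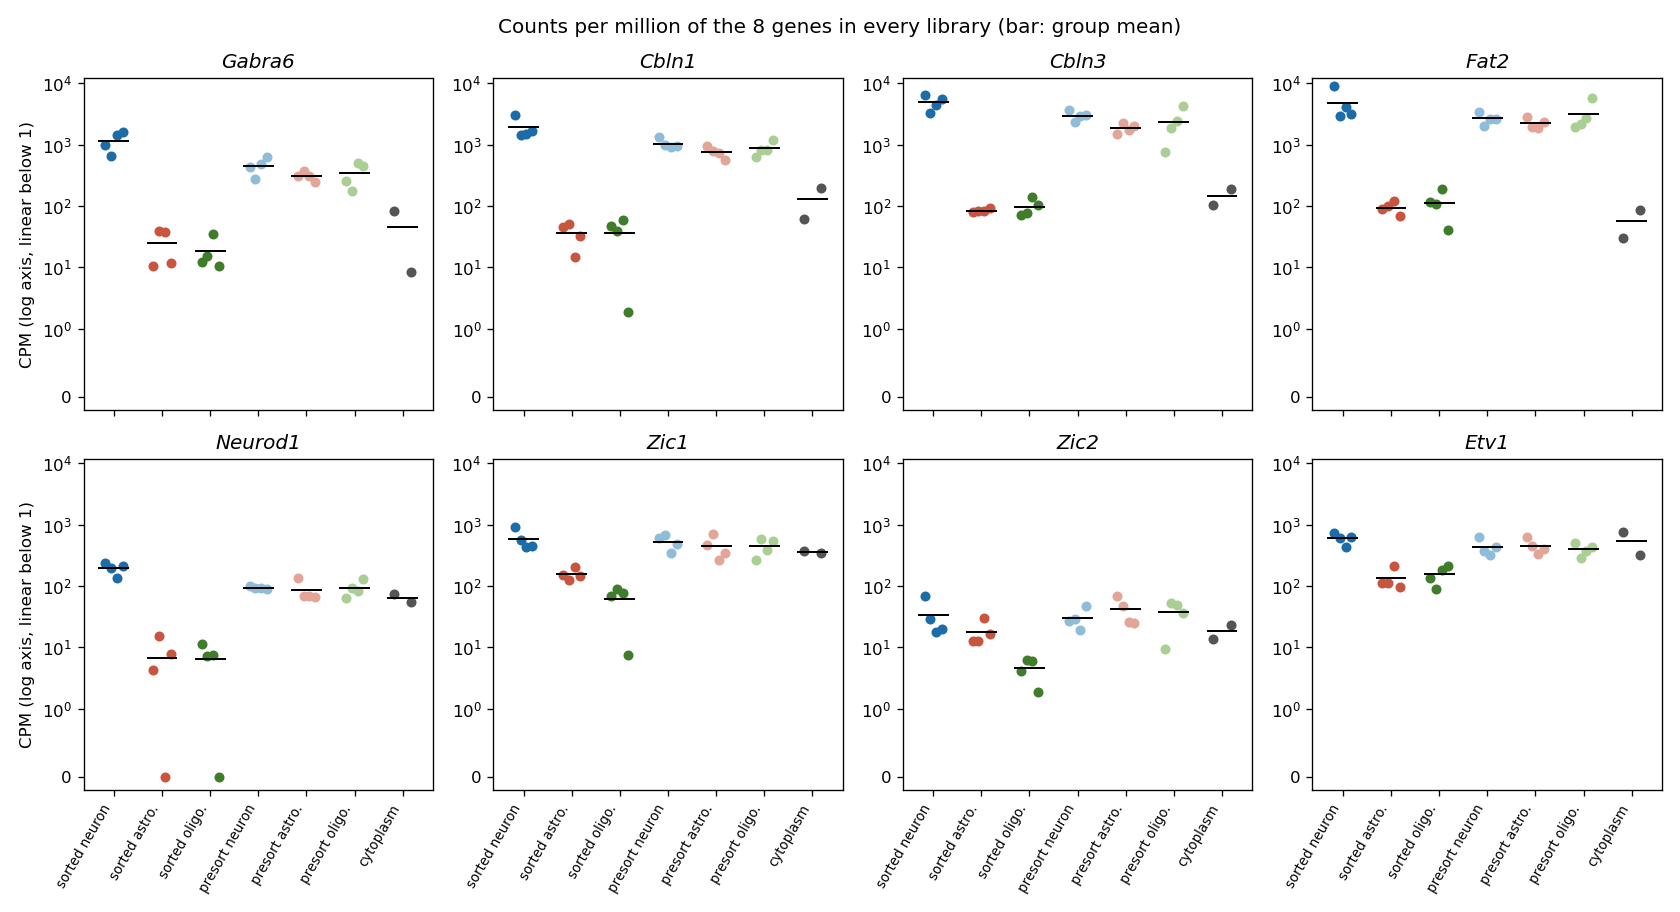
CPM of each gene (log axis, linear below 1) in every library, with 1 point per library and a bar at the group mean, for sorted neuron, astrocyte and oligodendrocyte nuclei, presort nuclei of the same lines and cytoplasm. Gabra6, Cbln1, Cbln3, Fat2 and Neurod1 form low bands in sorted glial nuclei, whereas Zic1, Zic2 and Etv1 stay closer to their presort levels there.

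The receptor subunit, both cerebellins, Fat2 and Neurod1 had means from 193 CPM (Neurod1) to 4866 CPM (Cbln3) in sorted neuron nuclei. In sorted glial nuclei each of these genes was at 1.58% to 3.52% of its own neuron level. Zic1, Zic2 and Etv1 kept larger shares, from 10.4% for Zic1 in sorted oligodendrocytes to 52.4% for Zic2 in sorted astrocytes. Per kilobase of exon (GENCODE M21), the order of mean levels in sorted neurons was Cbln3 at 1000.1, Cbln1 at 627, Gabra6 at 466, Fat2 at 325, Zic1 at 103, Neurod1 at 70.9, Etv1 at 45.6 and Zic2 at 11.8 CPM per kilobase. Nuclear RNA also holds introns, and whether they were counted is not given in the sources used here.

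Coordinates are those of GENCODE M21 (GRCm38), since the build the authors used is not given in the sources used here. Gabra6 (chr11:42306437-42321072, minus strand) had 995, 653, 1415 and 1574 CPM in sorted neurons, against 10.7, 38.6, 37.2 and 11.7 CPM in sorted astrocytes and 12.3, 15.3, 35.02 and 10.6 CPM in sorted oligodendrocytes. Every sorted neuron library lay above every sorted glial library, and the glial groups overlapped each other. The log2 fold change of sorted neurons was 5.52 ± 0.57 over sorted astrocytes and 5.63 ± 0.56 over sorted oligodendrocytes (SE). Cbln1 (chr8:87468405-87472609, minus strand) had 3005, 1451, 1483 and 1678 CPM in sorted neurons, against 45.6, 50.0, 14.9 and 32.4 CPM in sorted astrocytes and 47.1, 38.6, 59.2 and 1.87 CPM in sorted oligodendrocytes. The highest value came from sorted neuron replicate 2, far above the other libraries of its group, and the lowest value came from sorted oligodendrocyte replicate 36, with 3 counts. The 14.9 CPM of sorted astrocyte replicate 30 came from 2 counts, under the floor of 3 counts. The log2 fold changes of Cbln1 were 5.48 ± 0.69 over astrocytes and 5.43 ± 0.68 over oligodendrocytes. Its partner Cbln3 (chr14:55878913-55884392, minus strand) had 6322, 3267, 4356 and 5522 CPM in sorted neurons, against 78.9, 83.9, 81.9 and 91.4 CPM in sorted astrocytes and 70.9, 75.3, 141 and 104 CPM in sorted oligodendrocytes. The 4 astrocyte values of Cbln3 lay close together, and both glial groups lay far below the neurons. The log2 fold changes were 5.69 ± 0.40 and 5.22 ± 0.39 over astrocytes and oligodendrocytes.

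Fat2, the protocadherin (chr11:55250609-55336564, minus strand), had 8862, 2875, 4045 and 3108 CPM in sorted neurons, against 87.8, 99.9, 119 and 68.2 CPM in sorted astrocytes and 115, 106, 192 and 41.2 CPM in sorted oligodendrocytes. Its log2 fold changes were 5.55 ± 0.49 over astrocytes and 5.09 ± 0.48 over oligodendrocytes, with no overlap of the groups. The high Fat2 library was again sorted neuron replicate 2, which held the highest value of its group for 7 of the 8 genes, Gabra6 being the exception. Neurod1 (chr2:79452521-79456751, minus strand) had 235, 193, 134 and 212 CPM in sorted neurons, against 4.26, 15.2, 0 and 7.72 CPM in sorted astrocytes and 11.3, 7.15, 7.45 and 0 CPM in sorted oligodendrocytes. The 0 of sorted astrocyte replicate 30 allows up to 22.3 CPM and that of sorted oligodendrocyte replicate 36 up to 1.87 CPM. The fitted log2 fold changes of Neurod1 were 4.37 ± 0.76 and 4.57 ± 0.75 over astrocytes and oligodendrocytes.

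Zic1 (chr9:91358058-91365810, minus strand) had 908, 558, 434 and 442 CPM in sorted neurons, against 153, 126, 201 and 145 CPM in sorted astrocytes and 69.6, 90.1, 76.4 and 7.49 CPM in sorted oligodendrocytes. The 3 groups did not overlap, and sorted astrocytes stood between the other two. Zic1 was 1.77 ± 0.51 higher in sorted neurons than in sorted astrocytes and 2.98 ± 0.53 higher than in sorted oligodendrocytes on the log2 scale. Zic2 (chr14:122475435-122479852, plus strand) had 69.3, 29.2, 17.8 and 19.8 CPM in sorted neurons, against 12.8, 12.5, 29.8 and 16.4 CPM in sorted astrocytes and 4.09, 6.20, 5.96 and 1.87 CPM in sorted oligodendrocytes. Neurons and astrocytes overlapped for this gene, whose values rested on 3 to 184 counts per sorted library. The overlap came from sorted astrocyte replicate 30 alone, at 29.8 CPM from 4 counts, and that library also enters the fit of females alone. Its log2 fold change over astrocytes was 0.94 ± 0.59, came to 0.30 without sorted neuron replicate 2 and turned to -0.38 in females alone; over oligodendrocytes it was 2.56 ± 0.61. Etv1 (chr12:38779380-38870484, plus strand) had 745, 618, 432 and 630 CPM in sorted neurons, against 113, 111, 216 and 96.9 CPM in sorted astrocytes and 133, 88.7, 185 and 214 CPM in sorted oligodendrocytes. Both glial groups held Etv1 in every library, with log2 fold changes of 2.07 ± 0.43 and 1.49 ± 0.41 for neurons over astrocytes and oligodendrocytes.

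Sorted neurons lay entirely above sorted astrocytes for 7 of the 8 genes, where 20.0% of the 13029 genes tested did so, and above sorted oligodendrocytes for 8 of 8, where 24.7% did. The median log2 fold change of the 8 genes was 4.92 over astrocytes and 4.83 over oligodendrocytes, beside 0.05 and 0.16 over all genes. These counts restate how the genes were chosen. Of 19 other granule cell genes, a list also drawn up with results of these libraries known, 18 could be fitted, and their median log2 fold changes were 3.42 over astrocytes and 2.87 over oligodendrocytes. Of the 18 relatives of the 8 genes, such as other GABA-A alpha subunits and other Zic and Fat genes, 17 could be fitted, with medians of 0.33 and 2.28.

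**Figure D2:**
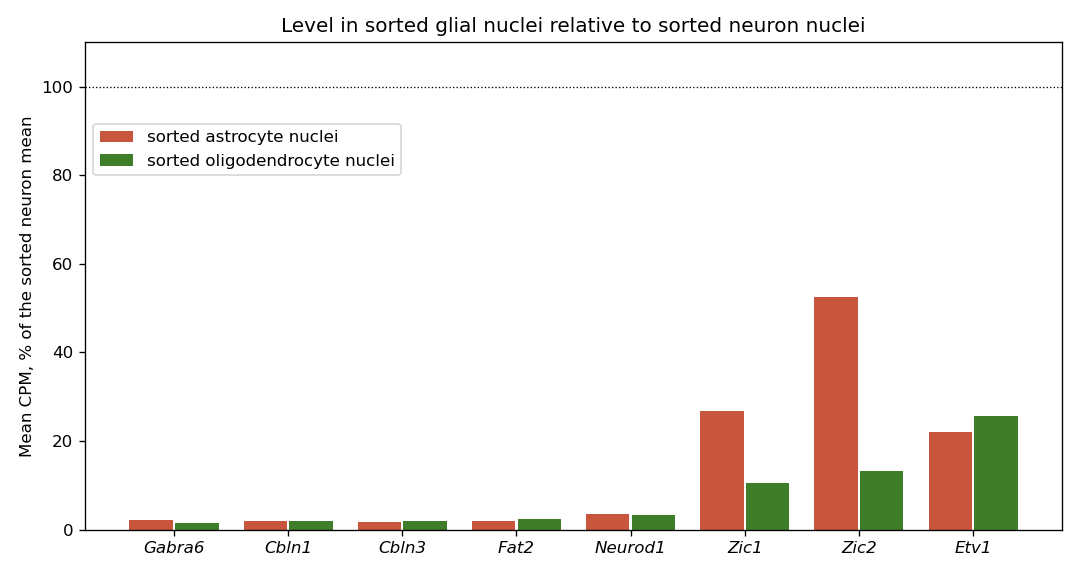
Mean CPM of each gene in sorted astrocyte nuclei and in sorted oligodendrocyte nuclei, as a percentage of its mean in sorted neuron nuclei (dotted line at 100%). The first 5 genes lie between 1.58% and 3.52%, and Zic1, Zic2 and Etv1 between 10.4% and 52.4%.

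The sorted glial groups were next set against each other. These libraries were the low side of the contrast by which the genes were picked, so the glial comparison is not independent of that choice. None of the 8 genes passed in sorted astrocytes against sorted oligodendrocytes at an adjusted p under 0.05 with edgeR's quasi-likelihood test, where 9.62% of all genes were higher and 7.48% lower. Zic1 and Zic2 came nearest, both higher in sorted astrocytes with no overlap of the groups, a pattern shown by 15.8% of all genes. The log2 fold change of Zic1 was 1.21 ± 0.50 (adjusted p = 0.117) and that of Zic2 was 1.63 ± 0.62 (adjusted p = 0.0860). These were the 2 of 8 genes with an unadjusted p under 0.05, which 3644 of the 13029 genes tested also had. DESeq2 called both, with adjusted p = 0.0431 for Zic1 and adjusted p = 0.0299 for Zic2. The share of all genes that DESeq2 called is not given here. The log2 fold changes of the other 6 genes lay between -0.58 ± 0.41 for Etv1 and 0.20 ± 0.70 for Neurod1.

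Relatives of the granule cell factors were read in the same glial contrast. Of the 17 relatives tested, 8 were higher in sorted astrocytes, with a median log2 fold change of 1.62 beside 0.11 over all genes. Etv4, an ETS factor like Etv1, was at 46.7 ± 17.9 CPM in sorted astrocytes and 2.45 ± 3.51 CPM in sorted oligodendrocytes (SD, n = 4 each), a log2 fold change of 4.07 ± 0.94 (adjusted p = 0.00524). The protocadherin Fat3 was at 585 ± 112 CPM in sorted astrocytes and 32.9 ± 27.7 CPM in sorted oligodendrocytes (log2 fold change 4.05 ± 0.69, adjusted p = 0.000517). Zic5 was 3.73 ± 0.67 higher on the log2 scale (adjusted p = 0.000709). Zic4 lies beside Zic1 on the opposite strand and overlaps it, and the library kit keeps no strand, so reads of the overlap cannot be told apart. Zic4 was at 153 ± 56.5 CPM in sorted astrocytes and 14.5 ± 10.8 CPM in sorted oligodendrocytes, against 101 ± 23.99 CPM in sorted neurons (SD, n = 4 each). Markers of other cell types moved in the same contrast: the sum of 5 Bergmann glia markers was 3064 to 4160 CPM in sorted astrocytes, against 776 to 901 CPM in sorted oligodendrocytes. Of these 5 genes, 3 were higher, where 9.62% of all genes were, and 1 was lower, where 7.48% were. The lower one was Sept4 (log2 fold change -2.36 ± 0.37, adjusted p = 0.000228). Slc1a3, the one with the largest rise (5.02 ± 0.46), is also among the 10 astrocyte markers. The sum of 8 meningeal and fibroblast markers was 335 to 673 CPM in sorted astrocytes, against 3.74 to 195 CPM in sorted oligodendrocytes. The sum of 6 oligodendrocyte precursor markers was 2378 to 3128 CPM in sorted astrocytes, against 115 to 203 CPM in sorted oligodendrocytes. The sum of 6 choroid plexus and ependymal markers was 604 to 7086 CPM in sorted astrocytes, against 44.9 to 168 CPM in sorted oligodendrocytes. The part of any of these cell types in the Zic, Etv4 and Fat3 values was not tested.

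Sorting was then examined within each line. These tests share their sorted libraries with the contrast by which the genes were picked, so they are not independent of that choice; the presort libraries lay outside that contrast. In the neuron line 3 of the 8 genes rose on sorting, where 1.27% of 11024 genes did. Gabra6 had 995, 653, 1415 and 1574 CPM in sorted neurons, against 429, 271, 488 and 622 CPM in presort nuclei of the neuron line, with no overlap. Its log2 fold change was 1.48 ± 0.32 (edgeR adjusted p = 0.00992). Neurod1 had 134 to 235 CPM in sorted neurons, against 98.8, 91.4, 94.5 and 89.5 CPM in presort nuclei, a log2 fold change of 1.17 ± 0.26 (adjusted p = 0.0128). Cbln1 had 1451 to 3005 CPM in sorted neurons, against 1305, 966, 903 and 951 CPM in presort nuclei, a log2 fold change of 1.01 ± 0.26 (adjusted p = 0.0322). For these 3 genes all sorted libraries lay above all presort libraries, as they did for 4.29% of all genes. The Cbln1 call was lost without sorted neuron replicate 28 or presort neuron replicate 3, 25 or 27 (adjusted p = 0.0593, 0.0830, 0.0885 and 0.103), and its log2 fold change was 0.60 without sorted neuron replicate 2. All 3 calls were lost in males alone, where edgeR called 0 of all genes higher, and the Neurod1 call also in females alone (adjusted p = 0.0792).

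Sorted and presort libraries of a line carry consecutive numbers, and the design text says that presort RNA came from each mouse, but no label ties a presort library to a sorted one. In the neuron line the deviations from the group means correlated at 0.199 to 0.324 in each of the 4 pairs of consecutive numbers, which also share their sex. Sorted neuron replicate 28, at 0.205 with presort replicate 27, correlated more closely with another presort library than with this assumed partner. With these assumed pairs as a block, chosen after seeing the data, 6 of the 8 genes rose, where 4.95% of all genes did. Those 6 were higher in the sorted library of 4 of 4 pairs. For Gabra6, Cbln1 and Neurod1 any pairing would give this count, since all their sorted libraries lay above all presort libraries. The share of all genes higher in 4 of 4 pairs was not computed, so this count does not bear on the pairing. The blocked fit added Cbln3 (0.80 ± 0.13, adjusted p = 0.000951), Fat2 (0.80 ± 0.17, adjusted p = 0.00580) and Etv1 (0.60 ± 0.16, adjusted p = 0.0196) to Gabra6, Cbln1 and Neurod1.

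Without the block, the other 5 genes did not pass in the neuron line. Cbln3 averaged 4866 ± 1338 CPM in sorted neurons and 2979 ± 534 CPM in presort nuclei (SD, n = 4 each), a log2 fold change of 0.83 ± 0.24 (adjusted p = 0.0541). It passed without sorted neuron replicate 4 or presort neuron replicate 1 (adjusted p = 0.0230 and 0.0408). Cbln3 also passed with DESeq2 on all libraries (adjusted p = 0.0365). With edgeR it passed without the filter on low counts and in females alone (adjusted p = 0.00696 and 0.0129), and it did not pass in males alone. Fat2 averaged 4722 ± 2806 CPM in sorted neurons and 2668 ± 567 CPM in presort nuclei (log2 fold change 0.95 ± 0.33, adjusted p = 0.107), and its log2 fold change was 0.36 without sorted neuron replicate 2. Etv1 (0.59 ± 0.26), Zic1 (0.28 ± 0.28) and Zic2 (0.30 ± 0.49) had smaller log2 fold changes, and Zic1 and Zic2 did not pass with the block either (adjusted p = 0.396 and 0.842). Of 18 other granule cell genes tested, 3 rose without the block, where 1.27% of all genes did, and 7 with it, where 4.95% did. Their unblocked median log2 fold change was 0.76 beside 0.07 over all genes. The 3 unblocked calls were Cadps2, a dense-core vesicle protein, at 1.21 ± 0.26 (adjusted p = 0.00917), Chn2, a GTPase-activating protein, at 1.04 ± 0.24 (adjusted p = 0.0157), and Fgf14, which binds sodium channels, at 0.87 ± 0.23 (adjusted p = 0.0349).

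In the astrocyte line 7 of the 8 genes fell on sorting, where 15.4% of 11026 genes did, and the same 7 did not overlap their presort libraries (18.6% of all genes). Fat2 was at 68.2 to 119 CPM in sorted astrocytes, against 2828, 1942, 1878 and 2357 CPM in presort nuclei of the astrocyte line, a log2 fold change of -4.41 ± 0.27 (edgeR adjusted p = 2.11e-09). Cbln3 was at 78.9 to 91.4 CPM in sorted astrocytes, against 1515, 2237, 1754 and 2022 CPM in presort nuclei (-4.25 ± 0.26, adjusted p = 2.11e-09). The sorted means of Fat2 and Cbln3 were 4.17% and 4.46% of their presort means. Cbln1 (-3.99 ± 0.31, adjusted p = 2.04e-08), Gabra6 (-3.62 ± 0.39, adjusted p = 7.36e-07) and Neurod1 (-2.98 ± 0.45, adjusted p = 3.18e-05) also fell. The Gabra6 log2 fold change was -4.29 without sorted astrocyte replicate 8. Etv1 fell by 1.62 ± 0.28 (adjusted p = 0.000151) and Zic1 fell by 1.30 ± 0.29 (adjusted p = 0.00174) on the log2 scale, and the Zic1 call was lost in females alone (adjusted p = 0.174). Zic2 had 12.5 to 29.8 CPM in sorted astrocytes, against 67.6, 47.7, 26.3 and 25.2 CPM in presort nuclei, with overlap (-1.07 ± 0.43, adjusted p = 0.0688).

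Most other granule cell genes also fell in sorted astrocytes. Of 15 tested, 12 fell, where 15.4% of all genes did, and 2 rose, where 13.7% did, with a median log2 fold change of -2.76 beside -0.03 over all genes. The largest falls were those of Grm4, a metabotropic glutamate receptor (-4.47 ± 0.32, adjusted p = 9.99e-09), the potassium channel Kcnk9 (-4.35 ± 0.56, adjusted p = 5.84e-06), Gabrd, the delta subunit that pairs with Gabra6 (-3.60 ± 0.39, adjusted p = 7.74e-07), and Il16 (-3.52 ± 0.41, adjusted p = 1.92e-06). The NMDA receptor subunit Grin2c and the factor Pax6 rose, outside the rule for naming and named after their values were seen. Grin2c was at 323 ± 123 CPM in sorted astrocytes and 196 ± 27.02 CPM in presort nuclei of that line (SD, n = 4 each). Pax6 was at 132 ± 32.6 CPM in sorted astrocytes and 88.3 ± 11.2 CPM in presort nuclei. Their log2 fold changes were 0.99 ± 0.30 (adjusted p = 0.0140) and 0.83 ± 0.29 (adjusted p = 0.0366).

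In the oligodendrocyte line 6 of the 7 genes tested fell, where 3.24% of 9520 genes did; Zic2 did not pass the filter on low counts. Fat2 was at 41.2 to 192 CPM in sorted oligodendrocytes, against 1919, 2198, 2739 and 5826 CPM in presort nuclei of the oligodendrocyte line, a log2 fold change of -4.39 ± 0.52 (edgeR adjusted p = 0.00136). Cbln3 was at 70.9 to 141 CPM in sorted oligodendrocytes, against 749, 1890, 2421 and 4237 CPM in presort nuclei (-3.96 ± 0.60, adjusted p = 0.00295). Presort replicate 35 was the high library for both genes and presort replicate 9 the low one. Cbln1 (-4.22 ± 0.70, adjusted p = 0.00467), Gabra6 (-3.74 ± 0.57, adjusted p = 0.00311), Neurod1 (-3.44 ± 0.82, adjusted p = 0.0251) and Zic1 (-2.48 ± 0.58, adjusted p = 0.0231) also fell. Etv1 was at 88.7 to 214 CPM in sorted oligodendrocytes, against 500, 285, 368 and 432 CPM in presort nuclei, and did not pass (-0.67 ± 0.51, adjusted p = 0.499). All 7 genes lay entirely below their presort libraries, as 19.7% of all genes did.

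These counts leaned on single libraries. Without sorted oligodendrocyte replicate 36 all 8 genes were lower, Zic2 included, and Etv1 passed at a log2 fold change of -1.23 (adjusted p = 0.00728). That fit called 1038 of all genes lower, against 308 with all libraries, so calls rose well beyond the 8 genes. The Neurod1 call was lost without sorted oligodendrocyte replicate 12 (adjusted p = 0.0537) or without any 1 of the presort libraries 9, 11, 33 and 35 (adjusted p from 0.0684 to 0.106). Zic1 lost its call without any 1 of the same 4 presort libraries (adjusted p from 0.0533 to 0.0925). In females alone, which hold replicate 36, edgeR called 0 of all genes in this line, while the log2 fold changes of Cbln1 and Fat2 were -4.69 and -4.70. Of 16 other granule cell genes tested, 7 fell, where 3.24% of all genes did, with a median log2 fold change of -2.75 beside -0.07 over all genes. Grin2c led them (-4.52 ± 0.86, adjusted p = 0.00980), followed by Grm4 (-4.39 ± 0.95, adjusted p = 0.0170), Gabrd (-4.16 ± 0.90, adjusted p = 0.0169) and Il16 (-3.87 ± 0.79, adjusted p = 0.0134).

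**Figure D3:**
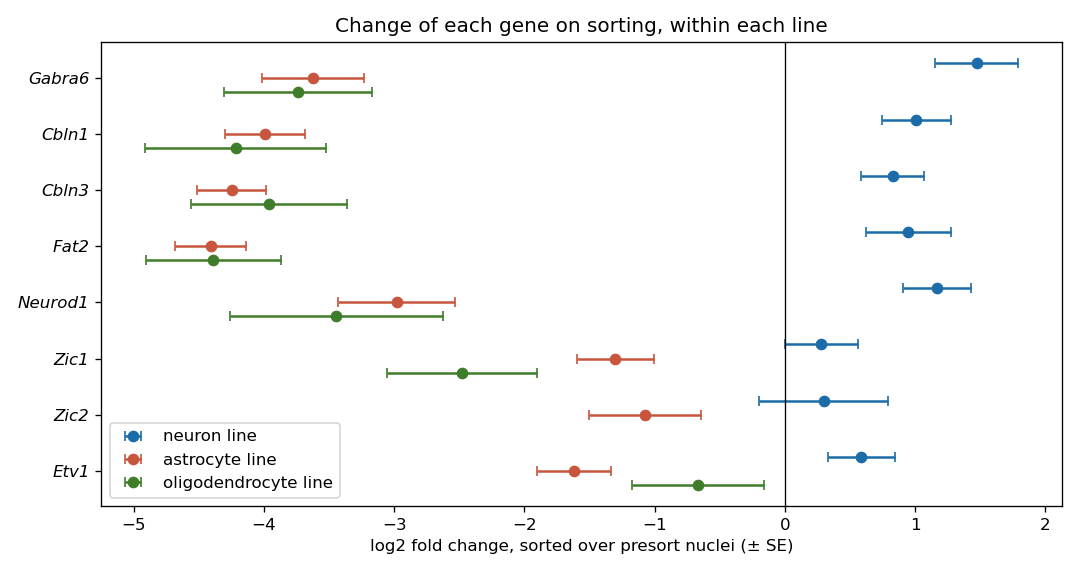
Log2 fold change of sorted over presort nuclei within each line, with its SE, for the 8 genes; Zic2 could not be fitted in the oligodendrocyte line. Gabra6, Cbln1, Cbln3, Fat2 and Neurod1 lie between 0.83 and 1.48 in the neuron line and between -4.41 and -2.98 in the glial lines, and Zic1, Zic2 and Etv1 move less.

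Nuclear and cytoplasmic RNA of whole brain were compared in 12 presort and 2 cytoplasm libraries. These lay outside the contrast by which the genes were picked, although earlier results from them were known too. The receptor subunit, both cerebellins and Fat2 were higher in presort nuclei, 4 of the 8 genes where 20.1% of 7728 genes were; Etv1 was the 1 gene lower, where 30.2% were. Fat2 ranged from 1878 to 5826 CPM (median 2475) in presort nuclei, against 30.03 and 85.4 CPM in cytoplasm, a log2 fold change of 5.0 ± 0.54 (edgeR adjusted p = 2.89e-07). Cbln3 ranged from 749 to 4237 CPM (median 2286) in presort nuclei, against 105 and 190 CPM in cytoplasm (3.45 ± 0.52, adjusted p = 1.49e-05). These genes, Gabra6 and Cbln1 did not overlap between the fractions, as 22.3% of all genes did not in this direction. Gabra6 ranged from 173 to 622 CPM (median 343) in presort nuclei, against 82.0 and 8.49 CPM in cytoplasm (2.33 ± 0.60, adjusted p = 0.00308). Cbln1 ranged from 554 to 1305 CPM (median 867) in presort nuclei, against 61.4 and 195 CPM in cytoplasm (2.24 ± 0.39, adjusted p = 7.60e-05). The cytoplasm libraries differed from each other, Gabra6 being high in the first and Cbln1 in the second. Gabra6 was at 1.47 without cytoplasm replicate 2 and 5.01 without replicate 1, Cbln1 at 3.15 without replicate 2, and Fat2 at 5.80 without replicate 2, all past the threshold.

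In the fits the transcription factors did not share that excess in nuclei. Neurod1 ranged from 63.8 to 135 CPM (median 90.5) in presort nuclei, against 73.3 and 54.3 CPM in cytoplasm, a log2 fold change of -0.13 ± 0.32 (adjusted p = 0.762). Zic1 ranged from 265 to 707 CPM (median 475) in presort nuclei, against 368 and 344 CPM in cytoplasm (-0.21 ± 0.33, adjusted p = 0.623). Zic2 ranged from 9.56 to 67.6 CPM (median 32.9) in presort nuclei, against 13.9 and 23.4 CPM in cytoplasm (0.34 ± 0.47, adjusted p = 0.564). All 3 overlapped between the fractions. Etv1 ranged from 285 to 624 CPM (median 420) in presort nuclei, against 772 and 316 CPM in cytoplasm (-0.99 ± 0.31, adjusted p = 0.0120). The Etv1 fractions overlapped, and the call rested on cytoplasm replicate 1: without it the log2 fold change was 0.03 (adjusted p = 0.955), and without replicate 2 it was -1.54 (adjusted p = 0.000260). The cytoplasm libraries differ from the presort ones in line and sex balance and, for replicate 1, in mitochondrial share, and the part of these differences was not tested beyond leaving out each library and the mitochondrially encoded genes, which changed no call when left out.

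Lists of other cell types were set beside the 8 genes in the same contrast. Of 16 other granule cell genes tested, 8 were higher and 1 lower in presort nuclei, with a median log2 fold change of 0.85 beside -0.12 over all genes. The lower one was the calcium buffer Calb2 (-3.20 ± 0.39, adjusted p = 1.27e-06), and the highest were Reln, a secreted protein of granule cells (2.99 ± 0.36, adjusted p = 9.38e-07), Il16 (2.79 ± 0.44, adjusted p = 2.19e-05) and Grin2c (2.53 ± 0.66, adjusted p = 0.00323). Of 6 Purkinje cell genes tested, 5 were lower in presort nuclei, with a median of -2.40, where 30.2% of all genes were lower. All 8 forebrain excitatory genes tested were lower, with a median of -2.35, and so were 9 of 10 pan-neuronal genes, with a median of -2.24. Summed levels were 510 to 1184 CPM of 10 Purkinje genes in presort nuclei, against 1967 and 2230 CPM in cytoplasm. The 10 forebrain excitatory genes summed to 592 to 1041 CPM in presort nuclei, against 3647 and 4482 CPM in cytoplasm. Some non-neuronal lists were higher in nuclei as well, so higher levels there were not particular to the granule cell genes. Of 6 meningeal and fibroblast genes tested, 5 were higher in presort nuclei, with a median log2 fold change of 2.41, where 20.1% of all genes were higher. The 6 endothelial markers summed to 108 to 1155 CPM in presort nuclei, against 6.50 and 11.3 CPM in cytoplasm. The 6 oligodendrocyte precursor markers summed to 532 to 1042 CPM in presort nuclei, against 133 and 166 CPM in cytoplasm. The 10 astrocyte markers summed to 1923 to 4433 CPM in presort nuclei, against 1235 and 1732 CPM in cytoplasm. The remaining non-neuronal lists were lower in nuclei, mixed or overlapping. The 10 oligodendrocyte markers summed to 3634 to 6585 CPM in presort nuclei, against 7236 and 9488 CPM in cytoplasm. Of 5 Bergmann glia genes tested, 2 were higher and 2 lower in presort nuclei. The microglia sums and the choroid plexus and ependymal sums overlapped between the fractions.

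**Figure D4:**
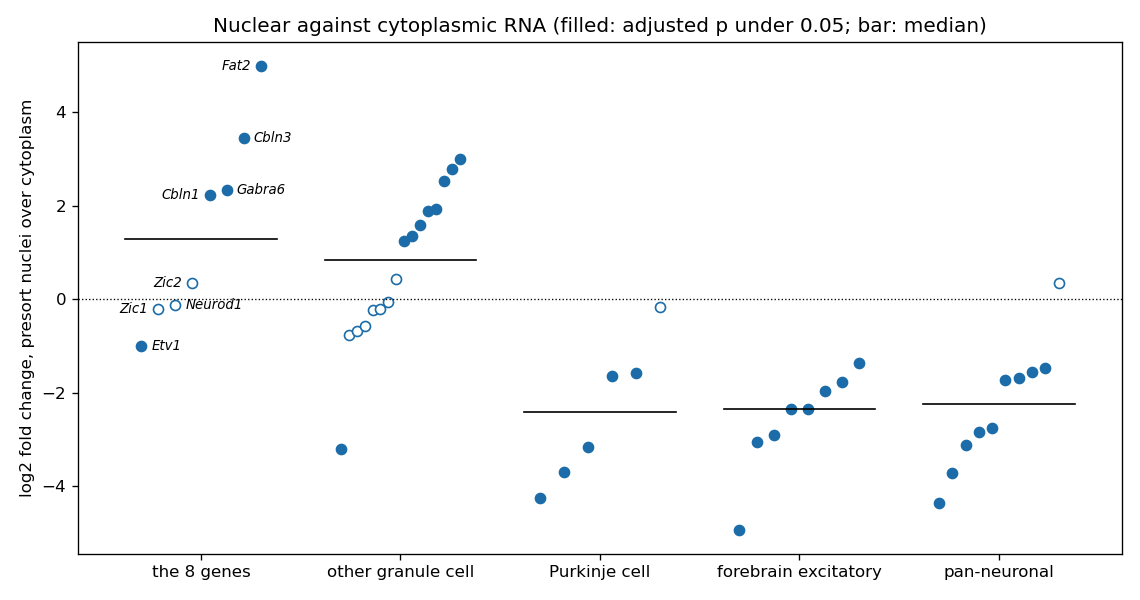
Log2 fold change of presort nuclei over cytoplasm for the 8 genes, other granule cell genes, Purkinje cell, forebrain excitatory and pan-neuronal genes; filled points have an adjusted p under 0.05 and bars are medians. The medians are 1.29 for the 8 genes and 0.85 for other granule cell genes, and between -2.40 and -2.24 for the other 3 lists.

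Presort nuclei of the 3 lines, mixtures taken before any sort, gave 0 of 8 genes and 0 of 6049 genes (0.0%) at an adjusted p under 0.05 in a joint edgeR test of the lines. The unadjusted p was under 0.05 for 0 of the 8 and for 201 of all genes, and DESeq2 called 0 of the 8 and 4 of all genes. Mean levels of Cbln3 were 2979 ± 534, 1882 ± 314 and 2324 ± 1454 CPM in presort nuclei of the neuron, astrocyte and oligodendrocyte lines (SD, n = 4 each). The oligodendrocyte line was the most variable for Cbln3 and Fat2.

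Females and males of the 24 nuclear libraries were compared with group as a covariate. None of the 8 genes passed with edgeR or with DESeq2, where edgeR called 0.813% of 12171 genes higher and 0.123% lower in females. An unadjusted p under 0.05 was reached by 3 of the 8 genes and by 1555 of the 12171 genes tested. Gabra6 was 0.51 ± 0.23 higher in females (adjusted p = 0.343), Cbln3 0.42 ± 0.20 higher (adjusted p = 0.379) and Zic1 lower, with a difference of -0.48 ± 0.22 (adjusted p = 0.365), on the log2 scale. Females and males carry separate blocks of replicate numbers, so sex and such a block cannot be told apart.

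The order of the 7 groups differed between the genes. Gabra6 and Cbln1 had sorted neurons on top without overlap with the next group, the presort groups next and overlapping one another, and cytoplasm and sorted glia at the bottom. For Cbln3 and Fat2 sorted neurons also had the highest mean but overlapped the next presort group. Neurod1 had sorted neurons on top without overlap with presort nuclei of the neuron line. Its cytoplasm libraries, at 54.3 and 73.3 CPM, overlapped presort nuclei of the astrocyte line and lay above every sorted glial library. Zic1 and Etv1 had the presort groups and cytoplasm overlapping just below sorted neurons, and Zic2 had its highest mean in presort nuclei of the astrocyte line. Across the 26 libraries, the correlation of each gene's log2 CPM with the mean of the other 7 was 0.96 for Cbln1, 0.94 for Cbln3, 0.91 for Gabra6, 0.90 for Fat2, 0.88 for Neurod1, 0.80 for Zic1, 0.66 for Zic2 and 0.63 for Etv1 (Pearson's r). The libraries fall into groups and share their depth and composition across genes, so these values are a description.

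Genes outside the set were ranked by the same measure against the mean of the 8. Among 9565 genes with at least 10 CPM on average in sorted neurons, the closest were Crtam (r = 0.967), Sv2b (0.965), Unc80 (0.963), Cdh18 (0.962), Gpr158 (0.960), Cers6 (0.960), Cnr1 (0.958) and Il16 (0.958). Crtam, an adhesion molecule of the immunoglobulin family, was at 294 ± 79.7 CPM in sorted neurons, 2.40 ± 1.93 CPM in sorted astrocytes and 4.59 ± 3.43 CPM in sorted oligodendrocytes (SD, n = 4 each). Sv2b, a synaptic vesicle protein, was at 982 ± 155 CPM in sorted neurons, 73.1 ± 24.02 CPM in sorted astrocytes and 54.5 ± 34.3 CPM in sorted oligodendrocytes. Cdh18, a cadherin, was at 467 ± 171 CPM in sorted neurons, 12.0 ± 6.22 CPM in sorted astrocytes and 12.2 ± 12.7 CPM in sorted oligodendrocytes. Cnr1, the cannabinoid receptor CB1, was at 1495 ± 398 CPM in sorted neurons, 73.4 ± 29.6 CPM in sorted astrocytes and 58.2 ± 54.0 CPM in sorted oligodendrocytes.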

How the data were processed

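Values were whole numbers in 1 deposited table of raw counts, 1 column per library, without normalization by the authors. Per the labels' protocols, Trizol extraction and DNase were followed by clean-up on MinElute columns and amplification with the NuGEN kit Ovation RNA-seq V2. The submitters' processing notes name Trimmomatic, Bowtie2, STAR, edgeR and bedtools. The sources used here do not state the build, annotation, counted regions, strand setting or sorting method. Symbols came from GENCODE M21, which named 26495 of 27501 identifiers. No 2 replicates were copies (chi-square per degree of freedom at least 1.97).

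Levels are CPM over all counts of a library. Differences were tested in edgeR 4.0.16 (limma 3.58.1, R 4.3.3) by glmQLFTest, two-sided, after TMM scaling and filterByExpr (minimum count 10), with Benjamini-Hochberg adjustment over all genes tested and a threshold of 0.05. The 12 sorted libraries shared 1 fit; each line's sort used its 8 libraries. Alternatives were RLE scaling, DESeq2 1.42.0, no filter, each sex alone, each library left out, no mitochondrial genes, and, added after seeing the data, consecutive library numbers as pairs. Scripts were tested on simulated data. The 8 genes and all lists were chosen with earlier results of these data known. Named were the 8 genes, up to 4 called genes of largest change per list (some are not reported here), and the 8 genes of highest correlation (log2 CPM, prior count 2).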

Additional observations from a re-analysis of the deposited data

Results flagged for a closer look

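Among 48 sets of 4 libraries (8 genes in 6 nuclear groups), 4 held a library far from the other 3, where chance marks about 5% of such sets. Cbln1 in sorted neurons stood at 3005 CPM in replicate 2. In presort nuclei of the neuron line Cbln1 stood at 1305 CPM in replicate 1. Neurod1 in presort nuclei of the astrocyte line stood at 135.3 CPM in replicate 5, from 20 counts. Etv1 in sorted astrocytes stood at 215.8 CPM in replicate 30, the shallowest sorted library, from 29 counts.

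For Gabra6, Cbln1 and Neurod1, every sorted library lay above the presort libraries in the neuron line and below them in the glial lines. The sort effect of the neuron line exceeded that of the astrocyte line by 5.1 for Gabra6, 5 for Cbln1 and 4.15 for Neurod1 on the log2 scale. It exceeded that of the oligodendrocyte line by 5.21 for Gabra6, 5.23 for Cbln1 and 4.61 for Neurod1. These differences between lines were not tested.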

How the results depend on the processing

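Counts of called genes moved with the setting. In sorted astrocytes against sorted oligodendrocytes, females alone gave 17 genes higher and 50 lower, and DESeq2 called 2 of the 8 genes higher. In the neuron line, omitting the filter on low counts gave 5 of the 8 genes and 383 of all genes higher, DESeq2 252 of all genes, females alone 241, and males alone 0 of the 8, 0 higher and 127 lower. In the astrocyte line, the unfiltered fit called 2558 genes lower, and males alone 730 higher and 803 lower. In the oligodendrocyte line, the unfiltered fit called 839 genes higher, DESeq2 938 lower, males alone 1082 higher and 1070 lower, and females alone 0 of the 8, 0 higher and 0 lower. Unfiltered counts were 2617 higher and 4198 lower for presort nuclei over cytoplasm, 1 among lines in presort nuclei (DESeq2 4), and 169 higher and 23 lower in females over males (DESeq2 372 and 156). Leaving out 1 library gave, of all genes, 990 to 1979 higher and 715 to 1587 lower in astrocytes over oligodendrocytes; 45 to 262 and 297 to 789 in the neuron line; 890 to 1847 and 943 to 1846 in the astrocyte line; 212 to 1031 and 55 to 1038 in the oligodendrocyte line; 1412 to 2136 and 2147 to 2403 for nuclei over cytoplasm; and 44 to 491 and 3 to 218 for sex. Of the 8 genes it left 2 to 4 higher in the neuron line, 4 to 8 lower in the oligodendrocyte line and 0 to 1 lower in nuclei than in cytoplasm. RLE scaling moved the median of all genes in the oligodendrocyte line to -0.19, against -0.07 with TMM. Sign changes among genes that had not passed were, in astrocytes over oligodendrocytes, Gabra6 at -0.38 in females alone, Cbln1 at 0.031 with RLE, 0.029 with DESeq2 and 0.038 in males alone, Cbln3 at 0.033 and Neurod1 at -0.044 in males alone; Zic2 in sorted neurons over astrocytes at -0.38 and in the neuron line at -0.66, both in females alone. Leaving out 1 library, log2 fold changes that crossed 0 ranged from -0.42 to 0.52 for Gabra6, -0.36 to 0.23 for Cbln1 and -0.37 to 0.56 for Neurod1 in astrocytes over oligodendrocytes; from -0.12 to 0.47 for Zic1 in the neuron line; from -0.41 to 0.31 for Neurod1, -0.35 to 0.038 for Zic1 and -1.54 to 0.030 for Etv1 in nuclei over cytoplasm; and from -0.10 to 0.18 for Fat2 and -0.11 to 0.13 for Etv1 in females over males. Consecutive library numbers were tried as a replicate block after seeing the data, a pairing assumed from the numbering. In the neuron line each pair's deviations correlated, although sorted replicate 28 correlated more closely with a presort library other than its assumed partner. There the block gave 6 of the 8 genes and 546 of all genes higher and 904 lower. In the oligodendrocyte line the correlations were -0.000746 to 0.174, and the block gave 222 of all genes higher and 59 lower, and 4 of the 8 genes lower, without Neurod1 and Zic1. In the astrocyte line they were 0.0279 to 0.131, and the block left 7 of the 8 genes lower and 1 of the other granule cell genes higher. Presort libraries, most with a floor of 9.56 to 20.3 CPM, limit Zic2.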

Other observations

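Gm2694, a long noncoding gene on the strand opposite Cbln1 that overlaps it, was at 152 ± 7.99 CPM in sorted neurons, 2.03 ± 1.38 CPM in sorted astrocytes and 3.90 ± 5.50 CPM in sorted oligodendrocytes (SD, n = 4 each). Neurod1 overlaps Cerkl and Gm26755, which were at 8.11 ± 3.16 and 15.9 ± 6.93 CPM in sorted neurons. The kit keeps no strand, so reads of these overlaps cannot be assigned to 1 gene.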
